A study of Mus musculus with 113 samples.

Results

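The genes described here are 10 genes of the neuronal cytoskeleton, listed by symbol, with no threshold on a measured value: Tuba1a, Tubb3, Tubb2b, Dcx, Map2, Mapt, Stmn2, Ina, Nefl and Ank2. All 10 were among the 13541 genes of the SFEB population table, the 13738 genes of the adherent table and the 23107 genes of the E14 table, and 9 were among the 11449 genes of the single-cell table, where Dcx was not listed, out of 23738 gene symbols in the 4 tables. Map2 is listed under its older symbol Mtap2 in the tables of R1 cells.

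RNA was sequenced from mouse embryonic stem (ES) cells during neural differentiation, in 113 samples. R1 cells, a mouse ES line that had been passaged once without feeder cells, were differentiated as floating aggregates in serum-free medium (SFEB) in a first series of 14 populations from 0 to 142 h and a parallel series of 8 populations from 0 to 216 h, and 64 cells were picked by hand at the hours of the parallel series, 8 at each of 8 times. R1 cells were also differentiated as an adherent monoculture in 15 samples from 0 to 216 h. E14 cells, another mouse ES line, were sequenced in 12 libraries, 3 each of WT and Fyn-KO cells at days 0 and 4 of neural induction, and the KO cells were 1 clone with a deletion that removes the start codon of Fyn, a Src-family kinase. The labels name no drug for any group. In both R1 protocols the cells were replated onto coated dishes on day 6, so the samples at 216 h came after replating. Each time point of the R1 populations was 1 sample, so these values have no replicate error of their own.

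Microtubules are hollow polymers of alpha- and beta-tubulin, and neurons build long, stable bundles of them in axons and dendrites. Microtubule-associated proteins bind and stabilize the bundles, stathmins bind free tubulin, neurofilaments fill the axon as intermediate filaments, and ankyrins tie membrane proteins to the spectrin lattice beneath the membrane. Several of these proteins, such as TUBB3, DCX and MAP2, are widely used to mark young neurons, although tubulin and filament genes can also be expressed outside the nervous system.

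In the mm9 genome build and GENCODE M1 annotation the members lie apart from each other. Tuba1a is at chr15:98780272-98783982, Tubb3 at chr8:125935324-125945915 and Tubb2b at chr13:34218877-34222223. Dcx is at chrX:140290385-140367854, Map2 at chr1:66221847-66489157, Mapt at chr11:104092704-104193404 and Stmn2 at chr3:8509527-8561604. Ina is at chr19:47089188-47099817, Nefl at chr14:68701920-68707152 and Ank2 at chr3:126624525-127111949. Values are per gene over its exons. Of the distinct 100-base stretches of the protein-coding transcripts of Tuba1a, 42.3% also occurred in Tuba1b or Tuba1c, and of those of Tubb2b 29.8% also occurred in Tubb2a. The reads were 100 bases long and the mapping kept 1 alignment per read, so the levels of Tuba1a and Tubb2b are uncertain to the extent that reads went to these relatives. The other 8 members shared 0 such stretches with another protein-coding gene.

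The sequences before the transcription starts are shown for members whose levels are followed below, since Dcx and Map2 rose in the same intervals of the SFEB series while Tuba1a and Ina followed other courses. Each line gives 250 bases that end just before a RefSeq start, 5′ to 3′ on the strand of the gene, in GRCm38.p6, and capitals mark the motifs named after the sequences. The windows are chr15:98953502-98953751 (minus strand) for Tuba1a, chrX:143933220-143933469 (minus strand) for Dcx, chr1:66175079-66175328 (plus strand) for Map2 and chr19:47014431-47014680 (plus strand) for Ina.
Tuba1a: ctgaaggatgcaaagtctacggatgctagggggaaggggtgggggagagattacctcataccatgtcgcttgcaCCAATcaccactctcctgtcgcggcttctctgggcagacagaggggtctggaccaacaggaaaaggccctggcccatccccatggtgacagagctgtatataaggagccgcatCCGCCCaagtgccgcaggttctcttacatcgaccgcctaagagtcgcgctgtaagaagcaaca
Dcx: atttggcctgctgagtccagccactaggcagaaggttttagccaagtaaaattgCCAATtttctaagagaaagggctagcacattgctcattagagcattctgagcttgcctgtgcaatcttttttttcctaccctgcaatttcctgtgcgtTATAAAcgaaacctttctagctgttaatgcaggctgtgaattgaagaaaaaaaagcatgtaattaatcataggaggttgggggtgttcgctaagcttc
Map2: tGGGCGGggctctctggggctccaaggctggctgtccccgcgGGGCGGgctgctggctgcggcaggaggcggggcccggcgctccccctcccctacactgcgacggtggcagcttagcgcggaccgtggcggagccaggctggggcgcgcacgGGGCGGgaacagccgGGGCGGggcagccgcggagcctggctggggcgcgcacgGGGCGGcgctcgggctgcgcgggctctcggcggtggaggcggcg
Ina: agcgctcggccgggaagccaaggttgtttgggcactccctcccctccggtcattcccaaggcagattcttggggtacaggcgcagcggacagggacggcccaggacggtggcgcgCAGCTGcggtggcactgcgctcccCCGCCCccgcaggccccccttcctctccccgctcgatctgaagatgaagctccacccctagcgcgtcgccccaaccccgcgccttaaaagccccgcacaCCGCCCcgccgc
The motifs were searched on both strands and none overlapped another. The GC-box GGGCGG occurred 5 times before Map2, 2 times before Ina and 1 time before Tuba1a, and it was present in 32.7% of 32851 RefSeq windows of the same length. The CCAAT box, CCAAT or ATTGG, occurred once before Tuba1a and once before Dcx, against 33.8% of all windows with it. The TATA box TATAAA occurred before Dcx, where its first base lay 98 bases before the start, against 12.4% of all windows. The E-box CAGCTG occurred before Ina, against 13% of all windows. The octamer ATGCAAAT and the left part of the RE1 element, TTCAGCACC, were in none of the 10 windows of the 6 members with a RefSeq window, and in 1.60% and 0.301% of all windows. The window of Dcx held 41.6% G and C and that of Map2 81.2%, against a median of 52.4% over all windows. These letters are a description of the windows and say nothing of which factors bind there.

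The 3 tubulins were the most abundant members in the last samples, whereas at 0 h of the first series Stmn2 (108 FPKM) was above Tubb2b (104) and Tubb3 (54.4). In the SFEB population at 216 h the members ranked, by FPKM, Tuba1a (1307), Tubb2b (533), Tubb3 (511), Stmn2 (229.8), Nefl (175), Ina (165), Map2 (104), Dcx (89.0), Mapt (54.8) and Ank2 (27.1). Each is 1 sample, and the order differed in the adherent sample at 216 h, where Tubb3 (664) was above Tubb2b (626), Nefl (299) above Stmn2 (196), and Mapt (40.8) above Map2 (37.8) and Dcx (34.9). FPKM counts fragments per kilobase of transcript and relative to all mapped reads of the library, so it can be set side by side between genes. The SFEB values were also adjusted for batch, with offsets that differ between genes, so their order is less certain. In the adherent sample at 0 h, without this adjustment, Tubb3 (149 FPKM) was above Stmn2 (126).

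**Figure D1:**
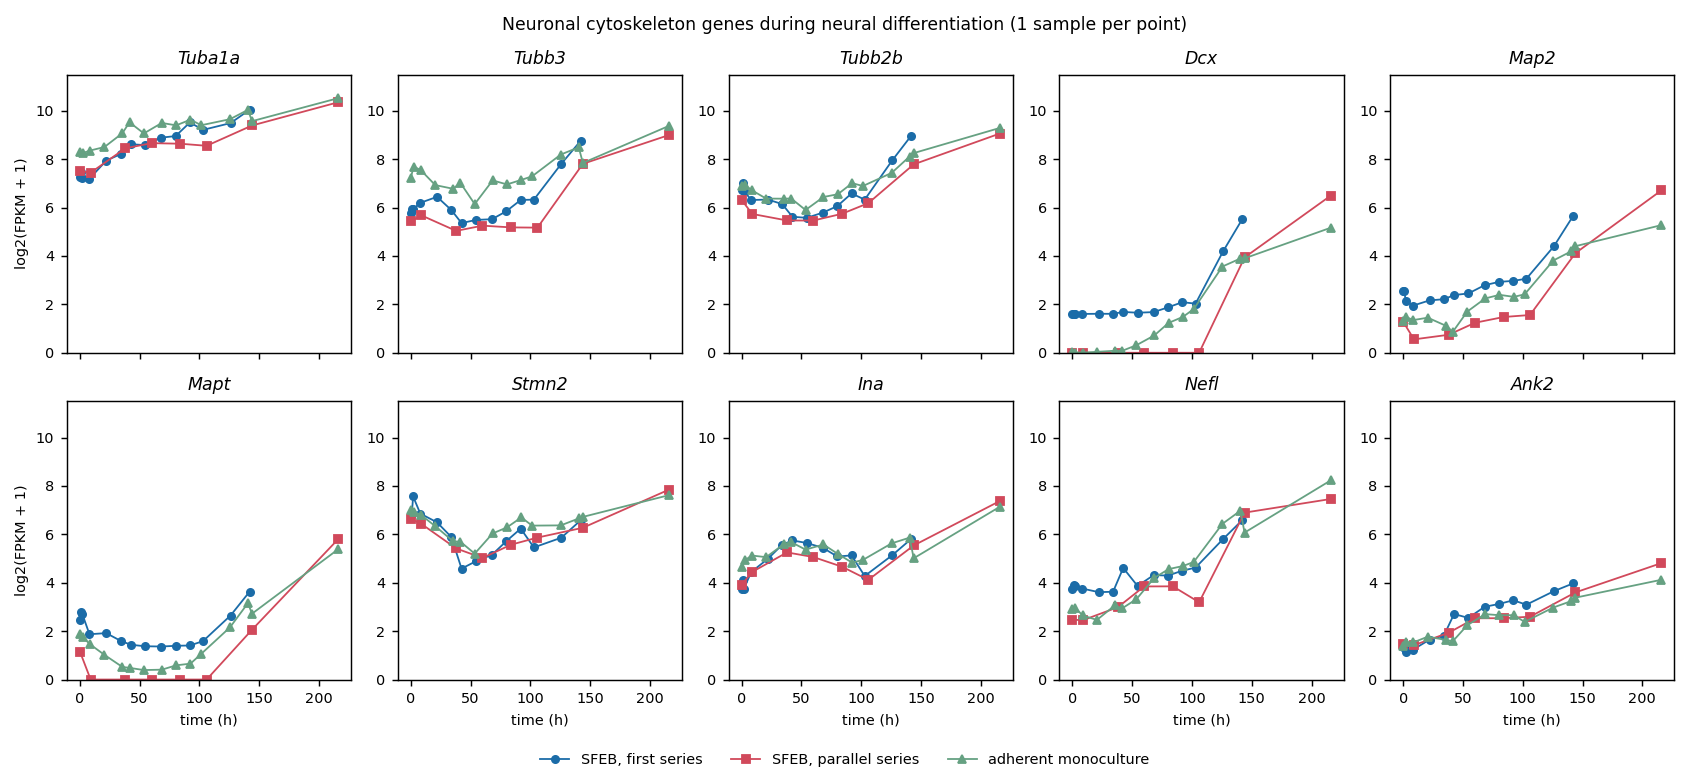
Levels of the 10 members against time of differentiation, as log2(FPKM + 1), with 1 point per sample and 1 line for each of the 14 first-series SFEB populations (circles), the 8 parallel SFEB populations (squares) and the 15 adherent samples (triangles). Tuba1a and Ank2 climb over the course with dips on the way, and Dcx and Map2 climb steeply after 103 h in the SFEB series. Tubb3, Tubb2b, Mapt and Stmn2 are lowest in the middle of each course or near it.

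Whether the members followed differentiation time was tested by the rank correlation of log2(FPKM + 1) with hours. Of the 10 members, 6 rose in the 22 SFEB populations (Tuba1a, Dcx, Map2, Ina, Nefl and Ank2) and none fell, where 30.7% of the 13115 genes tested rose and 22.8% fell. In the 15 adherent samples 6 also rose (Tuba1a, Tubb2b, Dcx, Map2, Nefl and Ank2) and none fell, where 34.8% of 12729 genes rose and 22.7% fell. Rising means an adjusted p of Spearman's rho below 0.05 and rho above 0, from 100000 permutations with Benjamini-Hochberg adjustment over all genes tested. Within the SFEB series the count was 5 of 10 in the first series alone and 3 of 10 in the parallel series alone, where 24.8% and 10.9% of all genes tested rose. It was 4 of 10 without the parallel samples at 144 and 216 h, the 2 farthest from the median time, where 27.5% of genes rose. By Pearson's r in place of rho 8 members rose in the SFEB populations (all but Mapt and Stmn2) and 9 in the adherent samples (all but Stmn2), where 35.1% and 34.9% of genes did. Over the members r ran from 0.027 for Stmn2 to 0.960 for Ank2 in the SFEB populations, and from -0.408 to 0.946 without the 2 farthest samples. The 22 populations are 2 series sampled over time, so neighbouring samples are not fully independent.

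Tuba1a is the alpha-tubulin isotype of growing neurons. Dcx and Mapt aside, whose floors differ by series, it was with Ank2 the first member to pass and hold 2-fold in the SFEB series. Ina was up before, at 46.6 FPKM at 34 h of the first series and 37.2 at 38 h of the parallel series, but came down again. With a 4-fold limit the order turned in the parallel series, where Tuba1a passed at 216 h and Tubb3, Map2, Nefl and Ank2 at 144 h. In the first series Tuba1a passed 4-fold at 126 h together with Map2 and Ank2. In the first SFEB series Tuba1a read 151 FPKM at 0 h, 393 at 42.5 h, 733 at 92 h and 1056 at 142 h, and in the parallel series 181.7 at 0 h, 405 at 60 h and 1307 at 216 h. It stood at least 2-fold above its mean of the samples up to 9 h, on the scale of FPKM + 1, in every sample from 42.5 h of the first series, 60 h of the parallel series and 68.5 h of the adherent series. The order differed in the adherent series, where Nefl also passed at 68.5 h, Dcx at 80.5 h and Ank2 only at 125.5 h. On the scale of FPKM + 0.1 Dcx passed there at 53.5 h, before Tuba1a, and Ank2 at 68.5 h. The rank correlation with time was 0.909 over the 22 populations (r = 0.936, both with a permutation p of 1e-05, the smallest possible, adjusted p of rho 6.98e-05), 0.943 within the first series and 0.881 within the parallel series. In the adherent samples rho was 0.907 (adjusted p = 0.000221 by permutation), and r was 0.918, or 0.910 without the 2 farthest samples.

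The other alpha-tubulins of the list did not share this course. Of the 5 others tested, 4 fell in the SFEB populations and all 5 in the adherent samples, and the median rho was -0.79 and -0.91, against 0.09 and 0.20 over all genes tested. The most abundant of them, Tuba1b, a ubiquitous isotype, read 475 FPKM at 0 h and 452 at 142 h in the first series and did not pass the test over the 22 populations (rho = -0.094, adjusted p = 0.742 by permutation), while it fell in the adherent samples from 682 to 441 FPKM (rho = -0.768, adjusted p = 0.00307 by permutation). The share of Tuba1a in the summed FPKM of these 6 genes went from 18.8% to 68.2% in the first series, from 23.8% to 78.6% in the parallel series and from 25.6% to 74.8% in the adherent series, with the shared stretches above as a limit.

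**Figure D2:**
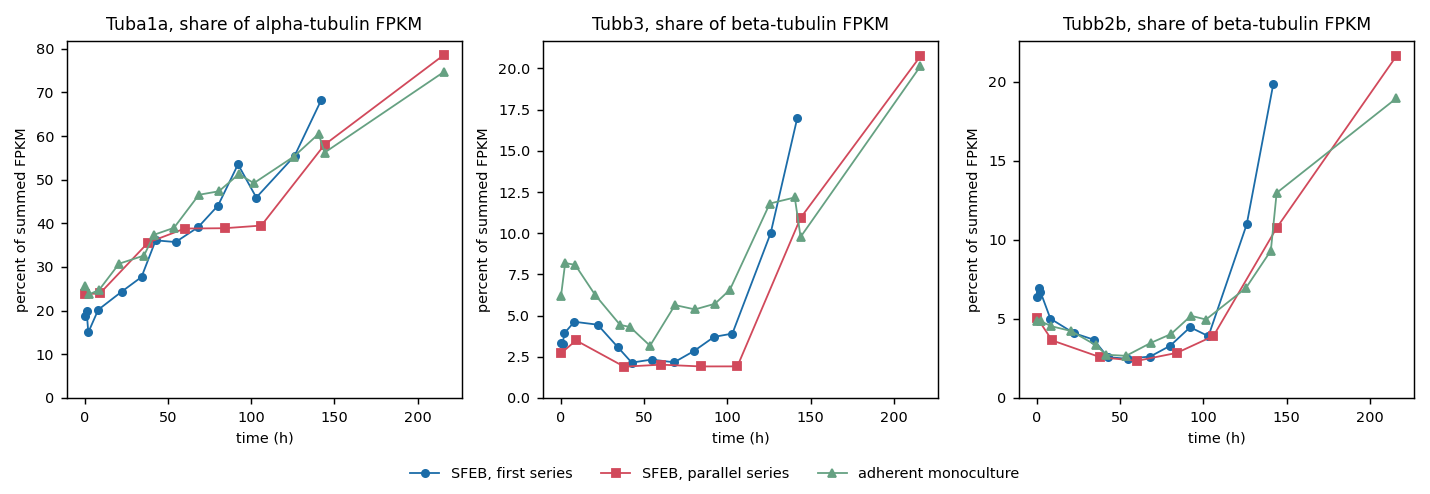
Share of Tuba1a in the summed FPKM of 6 alpha-tubulin genes, and of Tubb3 and Tubb2b in the summed FPKM of 7 beta-tubulin genes, in percent against time in hours, with 1 point per sample. The share of Tuba1a climbs in all 3 series to 68.2% or more in the last sample, while those of Tubb3 and Tubb2b stay below 9% up to about 106 h and end between 16.98% and 21.65%.

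Tubb3, the beta-tubulin isotype most used as a neuron marker, was present in ES cells and was lowest in the middle of each course. In the first series it read 54.4 FPKM at 0 h, 86.1 at 22 h, 40.1 at 42.5 h, 79.4 at 103 h, 224.1 at 126 h and 430.1 at 142 h. In the parallel series it stayed between 31.8 and 50.1 FPKM up to 106 h and then reached 223 at 144 h and 511 at 216 h. In both SFEB series no sample before 126 h exceeded 86.1 FPKM. The rank correlation over all 22 populations was 0.351 (adjusted p = 0.164 by permutation) although r was 0.715 (adjusted p = 0.000753 by permutation), and r was 0.494 without the 2 farthest samples.

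Tubb2b, another neuronal beta-tubulin isotype, was likewise lowest in mid-course and highest in the last samples. It did not share the early high of Tubb3 at 22 h of the first series, where Tubb2b was at 79.6 FPKM. It went from a mean of 104 FPKM ± 20.6 (SD, n = 4 samples up to 8 h) to 46.7 at 54.5 h in the first series and reached 503 at 142 h. In the adherent series it went from 114 ± 9.05 (SD, n = 3 samples up to 8.5 h) to 58.8 at 53.5 h and to 626 at 216 h. Its rho was 0.256 in the SFEB populations (adjusted p = 0.325 by permutation) and 0.639 in the adherent samples (adjusted p = 0.0232 by permutation), and the adherent call was lost without the 2 farthest samples (rho = 0.445, adjusted p = 0.184 by permutation). Of the 5 other beta-tubulins 2 rose in each table, Tubb5 and Tubb4, and 1, Tubb2c, fell from 523 to 284 FPKM in the first series. Tubb5, the most abundant of the list, went from 840 to 1197 FPKM there, and over the 22 populations its rho was 0.773 (adjusted p = 0.000241 by permutation).

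Dcx and Map2 were highest in the last sample of each of the 3 series. Dcx encodes doublecortin, a microtubule-binding protein of migrating neuroblasts. In the adherent samples, which carry no batch correction, Dcx was 0.0280 FPKM at 0 h, 0.241 at 53.5 h, 1.80 at 92.5 h, 10.8 at 125.5 h, 13.97 at 144 h and 34.9 at 216 h, and each sample from 53.5 h on was above the one before (rho = 0.971, adjusted p = 0.000118 by permutation). In the SFEB table its early values were flat at an offset that depends on the series: between 2.04 and 3.26 FPKM in the first series up to 103 h, and below 0 as deposited in all 6 samples up to 106 h of the parallel series, which were set to 0. The floor thus differs between the series of 1 table, so no fold from the start is given for Dcx in the SFEB series. From there Dcx reached 17.2 FPKM at 126 h and 44.8 at 142 h in the first series, and 14.4 at 144 h and 89.0 at 216 h in the parallel series. Over the 22 populations rho was 0.610 (adjusted p = 0.0075 by permutation), and the call was lost without the 2 farthest samples (rho = 0.483, adjusted p = 0.063 by permutation) and in the parallel series alone (rho = 0.764, adjusted p = 0.108 by exact permutation). In the first series alone Dcx passed (rho = 0.898, adjusted p = 0.000435 by permutation). The ranks over all 22 populations mix the floors of the 2 series.

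Map2, a microtubule-associated protein of dendrites, followed Dcx. It read 1.42 FPKM at 0 h, 1.95 at 106 h, 16.4 at 144 h and 104 at 216 h in the parallel series, and 4.83, 7.34 (at 103 h), 20.1 (at 126 h) and 49.1 (at 142 h) in the first series. In the adherent series it dipped to 0.826 FPKM at 41.5 h and ended at 37.8. The rank correlation was 0.600 in the SFEB populations (adjusted p = 0.00888 by permutation) and 0.896 in the adherent samples (adjusted p = 0.000176 by permutation), and the SFEB call was lost without the 2 farthest samples (rho = 0.472, adjusted p = 0.0696 by permutation). Taken alone, the first series passed (rho = 0.780, adjusted p = 0.00579 by permutation). The parallel series alone did not (rho = 0.857, adjusted p = 0.0524 by exact permutation). The 2-fold rise began at 126 h in the first series, 144 h in the parallel series and 101.5 h in the adherent series. On the scale of FPKM + 0.1 the adherent hour was 68.5 h. Early Map2 also differed between the SFEB series, with medians up to 106 h of 4.63 FPKM in the first and 1.39 in the parallel. Their 2-fold hours are thus not set against each other.

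Mapt, which encodes tau, the microtubule-associated protein of axons, was lower in mid-course than at either end. In the adherent series it went from 2.65 FPKM at 0 h to 0.312 at 53.5 h, then to 3.46 at 125.5 h and 40.8 at 216 h. In the first SFEB series the lowest value was 1.57 FPKM at 68 h, from a mean of 4.67 ± 1.45 (SD, n = 4), and the last was 11.4. In the parallel series 5 of 8 values were below 0 as deposited, and the last 2 were 3.17 and 54.8 FPKM. As for Dcx, the floor of Mapt in the batch-adjusted SFEB table thus differs between the series, and its low values there are not read as levels. Mapt did not pass the rank test in either table (rho = 0.092 and 0.404, adjusted p = 0.743 and 0.191 by permutation). The SFEB value ranks the different floors together, so it does not settle whether Mapt followed time there. Within the first series rho was -0.226 (adjusted p = 0.538 by permutation) and within the parallel series 0.464 (adjusted p = 0.418 by exact permutation). Of the 7 other structural microtubule-associated proteins tested, 1 rose and 1 fell in the SFEB populations and 2 rose and 2 fell in the adherent samples, and Mtap1b, an early axonal member, went from 14.3 to 95.4 FPKM in the first series (rho over the 22 populations 0.881, adjusted p = 6.98e-05 by permutation). Both other doublecortin-family genes tested, Dclk1 and Dclk2, rose in both tables.

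Stmn2 encodes a stathmin of growth cones that binds tubulin, and it was the member with the highest start relative to its end. In the first series its values up to 8 h lay between 108 and 188 FPKM, and it was at 23.0 at 42.5 h and at 94.5 at 142 h, below every one of the early samples. In the parallel series it went from 98.7 to 31.6 FPKM at 60 h and reached 229.8 at 216 h, and in the adherent series from 126 to 35.9 at 53.5 h and to 196 at 216 h. The rank correlation was -0.268 in the SFEB populations and 0.071 in the adherent samples (adjusted p = 0.306 and 0.842 by permutation), and the sign of rho differed between the first series (-0.525) and the parallel series (0.119). Stmn3 and Stmn4 rose in both tables, while Stmn1, the ubiquitous stathmin, went from 96.7 to 363 FPKM in the first series without passing the test over the 22 populations (rho = 0.367, adjusted p = 0.142 by permutation).

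Fibroblast markers were already low at or before the mid-course lows of Stmn2 and Tubb2b, and also later, when these members were up again. In the first, parallel and adherent series Stmn2 was lowest at 42.5, 60 and 53.5 h and Tubb2b at 54.5, 60 and 53.5 h. The summed FPKM of 10 fibroblast genes went from 1008 at 0 h to 39.4 at 42.5 h in the first series, from 1036 to 76.9 at 38 h in the parallel series and from 687 to 78.3 at 53.5 h in the adherent series, and was 19.6, 129 and 56.5 in the last samples. Of the 10 genes 8 fell with time in the SFEB populations and 6 in the adherent samples. Naive pluripotency markers were at 1840, 2074 and 2013 FPKM summed over 7 genes at 0 h and at 123, 214 and 234 in the last samples. Dppa5a (818 FPKM) and Pou5f1 (385) weighed most in this sum at 0 h of the first series. Both were higher at a later hour there (up to 1747 and 571), so the sum does not follow the naive state alone. The part of either marker list in these courses was not tested. In bulk samples, fewer cells of a type and less RNA per cell cannot be told apart.

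Ina and Nefl encode intermediate filament proteins of neurons, internexin alpha and the light neurofilament chain. Ina was high early, lower in mid-course and high again at the end. It went from 12.2 FPKM at 0 h to 52.8 at 42.5 h, back to 18.4 at 103 h and to 55.4 at 142 h in the first series. The parallel series read 14.1, 37.2 (38 h), 16.4 (106 h) and 165 (216 h), and the adherent series 24.4, 50.3 (41.5 h), 27.5 (92.5 h) and 140.2 (216 h). An early peak at 38 to 42.5 h was thus present in all 3 series, each with 1 sample per time point. The rank correlation of Ina was 0.596 in the SFEB populations (adjusted p = 0.0109 by permutation), but it did not pass in either SFEB series alone (adjusted p = 0.0543 and 0.189 by permutation) or in the adherent samples (rho = 0.446, adjusted p = 0.141 by permutation).

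Nefl had no such early peak shared by the series. It went from 12.5 FPKM at 0 h to 23.7 at 103 h and 94.99 at 142 h in the first series, from 4.54 to 8.15 at 106 h and 175 at 216 h in the parallel series, and from 6.51 to 28.02 at 101.5 h and 299 at 216 h in the adherent series. The rank correlation was 0.686 in the SFEB populations and 0.939 in the adherent samples (adjusted p = 0.00199 and 0.000118 by permutation), and 0.780 and 0.905 within the first and the parallel series. The SFEB series started at different levels of Nefl, so the value over all SFEB populations ranks different starts together. Of the 9 other intermediate filament genes, 2 rose (Nefm and Nes) and 3 fell in the SFEB populations, and 5 rose and 1 fell in the adherent samples. Vim, the most abundant, was at 493 FPKM at 0 h and 523 at 142 h and did not pass (rho = -0.034, adjusted p = 0.907 by permutation).

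Ank2 encodes ankyrin-B, an adaptor between membrane proteins and spectrin along the axon. It was the least abundant member in both samples at 216 h, though not at 142 h of the first series, where Mapt was lower (11.4 FPKM). It read 1.54 FPKM at 0 h, 5.54 at 42.5 h, 7.53 at 103 h and 14.7 at 142 h in the first series, and 1.73, 4.78 (60 h), 5.05 (106 h) and 27.1 (216 h) in the parallel series. The rank correlation was 0.926 over the 22 populations, 0.943 and 0.976 within the series, and 0.950 in the adherent samples (adjusted p = 6.98e-05, 0.00016, 0.00829 and 0.000118 by permutation). Of the 7 other ankyrins and spectrins tested, 2 rose and 2 fell in the SFEB populations and 2 rose and 1 fell in the adherent samples, with Ank3 and Spnb3 rising in both.

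Other parts of the microtubule system gave the following counts. Of 8 microtubule plus-end proteins 6 rose in the SFEB populations and 8 in the adherent samples (median rho 0.81 and 0.87), with none falling. Of 7 severing enzymes 4 rose in each table and 1 fell in the SFEB populations, and of the tubulin modifying enzymes and chaperones 7 of 11 rose in the SFEB populations and 5 of 10 in the adherent samples, where 1 fell. Of the gamma-, delta- and epsilon-tubulins 3 of 4 rose in the SFEB populations and 2 of 3 in the adherent samples, with none falling. Of 10 neuron markers outside the cytoskeleton 8 rose in the SFEB populations and 10 in the adherent samples, and of 8 neural progenitor markers 6 and 7 rose, while Sox2 fell in both. The summed FPKM of the neuron markers stayed between 26.2 and 63.6 up to 103 h of the first series and reached 273 at 142 h, and in the parallel series it was 31.4 at 106 h, 149 at 144 h and 593 at 216 h.

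The genes outside the list whose courses were most like the mean course of the members were Dusp8, Nacad, Scrt1, Rufy3 and Stmn4. Their Pearson r with the mean z-scored profile was at least 0.970 over both the 22 SFEB populations and the 15 adherent samples, with the smaller r of each pair at 0.982 for Dusp8 and 0.970 for Stmn4. These r describe samples that share a time course and carry no test. Among the members the same smaller r was highest for Dcx (0.961), Map2 (0.957) and Nefl (0.946) and lowest for Ina (0.691) and Stmn2 (0.401), although the members themselves make up the mean profile. Scrt1, a neuronal transcription factor, read 0.490 FPKM at 0 h and 13.9 at 142 h in the first series.

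At the single-cell level the members were compared as log10(RPKM + 1), with the 8 cells of a time point taken as 1 sample. None of the 9 members rose or fell with time over the 8 time-point means. None of the 11449 genes did, so the background was 0%, where 1291 genes had an unadjusted p below 0.05 by exact permutation of the 8 time points and the smallest adjusted p was 0.189. Among the members Tuba1a had the highest rho (0.762, unadjusted p = 0.0368 and adjusted p = 0.384 by exact permutation, r = 0.707).

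**Figure D3:**
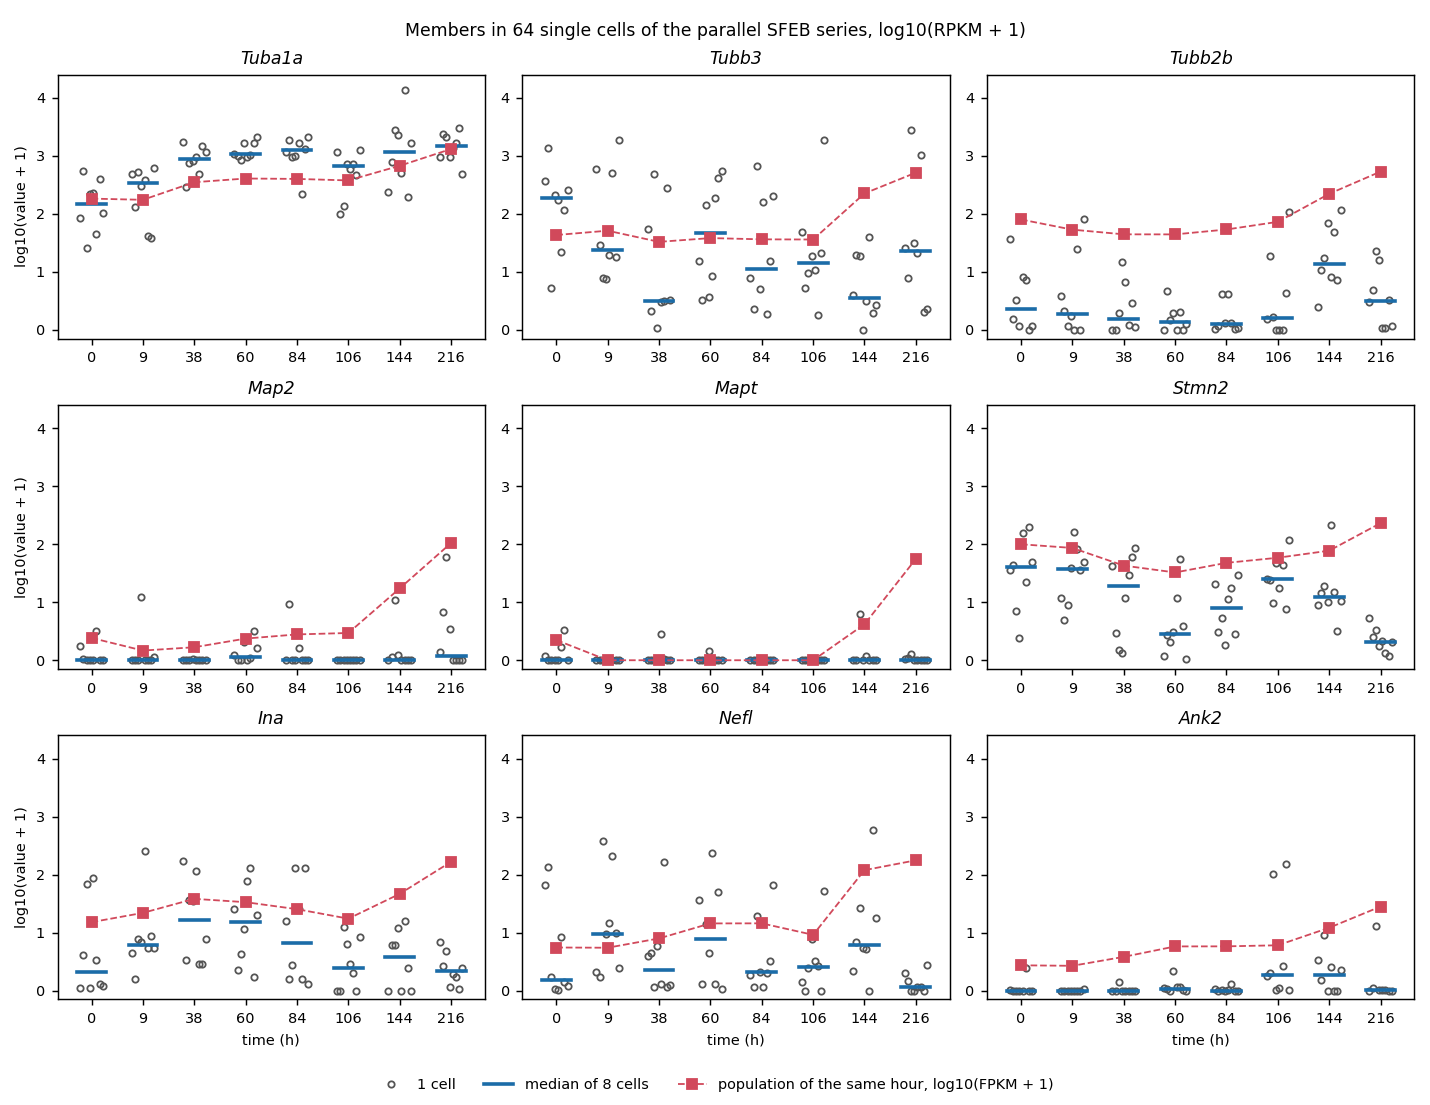
Levels of 9 members in 64 cells, as log10(RPKM + 1), in 8 cells at each hour (open circles) with their median (bar), beside the SFEB population of the same hour as log10(FPKM + 1) (squares). At 216 h 5 of 8 cells reach the population value for Tuba1a, whereas all 8 lie under it for Tubb2b, Map2, Mapt, Stmn2, Ina, Nefl and Ank2.

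Tuba1a was above 0 in all 64 cells. Its median went from 160 RPKM in the cells of 0 h to 1502 in those of 216 h, where the 8 cells spanned 2.69 to 3.48 on the log10 scale. The cells of 0 h spanned 1.42 to 2.74, so the groups of 0 and 216 h overlapped only at that edge. Of the other members, Stmn2 was above 0 in 64 cells, Tubb3 in 63, Ina and Nefl in 58 each, Tubb2b in 54, Ank2 in 34, Map2 in 29 and Mapt in 22. Above 0.5 RPKM the last 3 were at 13, 12 and 4 cells. At 106 h Map2 and Mapt were at 0 in all 8 cells.

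Tubb3 was uneven among the cells. At 216 h it ranged from 0.30 to 3.44 on the log10 scale with a median of 1.37, and 2 cells, at 2781 RPKM (cell 4) and 3.01 on the log10 scale (cell 12), stood above the population at 511 FPKM. Already at 0 h all 8 cells held it, from 0.71 to 3.13, with a median of 187 RPKM against 42.1 FPKM in the population. At 144 h the highest of 8 cells was 39.4 RPKM, while the population stood at 223 FPKM.

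At 216 h most members were far lower in the 8 cells than in the population of that hour. Stmn2 was between 0.065 and 0.73 on the log10 scale, a mean of 1.45 RPKM, against 229.8 FPKM. Nefl had a mean of 0.445 RPKM against 175 FPKM, Ina 1.86 against 165, Tubb2b 5.64 against 533 and Mapt 0.0517 against 54.8. None of the 8 cells reached the population value for these 5 genes, nor for Map2, whose highest cell was at 58.1 RPKM against 104 FPKM, or Ank2, with 11.95 against 27.1. On log2 of the mean of the cells over the population, each plus 1, these 5 genes lay between -6.93 and -5.73, where the median of 11137 shared genes was -1.09 and the 5th percentile -3.79. The number of members below the 5th percentile was 0 of 9 at 0, 9, 38 and 106 h, 1 at 60 and 84 h (Tubb2b) and at 144 h (Tubb3), and 5 at 216 h. Above the 95th percentile were 2 members at 0 and 9 h (Tubb3 and Nefl), 3 at 60 h (Tuba1a, Tubb3 and Nefl), 2 at 84 h (Tuba1a and Tubb3), 2 at 106 h (Tubb3 and Ank2) and 0 at 38, 144 and 216 h. The tables were normalized separately, so these are values side by side and not a test.

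**Figure D4:**
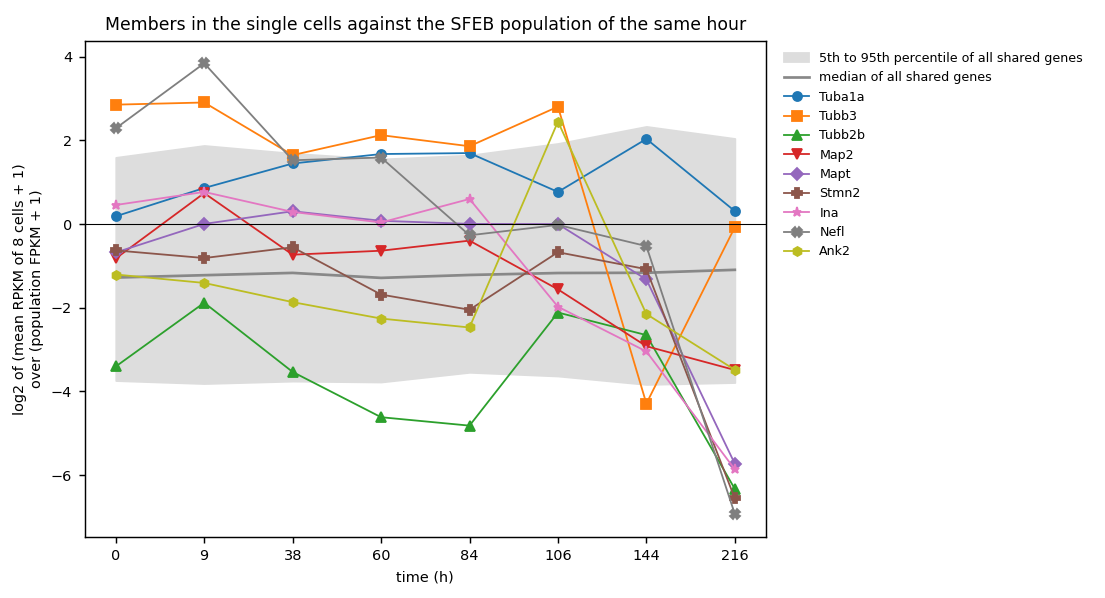
log2 of the mean RPKM of 8 cells plus 1 over the population FPKM plus 1, against time in hours, for 9 members (lines with markers), with the median (grey line) and the 5th to 95th percentile (grey band) of 11137 genes in both tables. At 216 h Tubb2b, Mapt, Stmn2, Ina and Nefl lie between -6.93 and -5.73, under the band that ends at -3.79.

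Neuron markers outside the cytoskeleton were split among the 8 cells of 216 h as well. Gap43, a growth cone protein, had a mean of 0.957 RPKM in the cells against 195 FPKM in the population, and Rbfox3 and Snap25 were at 0 in all 8 cells. Nsg1 had a mean of 103 RPKM against 78.3 FPKM and Elavl4 54.5 against 52.97, but 1 cell carried most of each mean, at 769.7 RPKM for Nsg1 and 422 for Elavl4. The summed RPKM of the 8 neuron markers in the table was 579 in cell 4, 771 in cell 12 and 18.9 or less in the other 6 cells, and the sum of the 8 neural progenitor markers ran from 14.7 to 1086 with a median of 378. Cells 4 and 12 were also the 2 highest for Tubb3. Cell 4 was the highest for Tubb2b (1.36), Map2 (1.77), Mapt (0.10) and Ank2 (1.11) on the log10 scale, while Stmn2 (0.52) was below only cell 1 (0.73) and Nefl was at 0. Cell 12, whose neuron marker sum was the highest and came almost wholly from Nsg1, had Map2 and Mapt at 0, Tubb2b at 0.031, Stmn2 at 0.13 and Ank2 at 0.0087. Cell 16 had a naive pluripotency sum of 586 RPKM against 62.8 or less in the other 7 cells.

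Early cells held some members at high levels. At 9 h Nefl had a mean of 77.8 RPKM over 8 cells, with 3 cells above 10 RPKM and the highest at 378, against 4.49 FPKM in the population, and Ina had 1 cell at 257 RPKM. The fibroblast marker sum over 7 genes had a median of 7.75 RPKM at 0 h, 7.55 at 9 h and 0.120 at 38 h, but 21.6 at 144 h and 18.2 at 216 h, with single cells up to 736 RPKM at 0 h, 398 at 144 h and 355 at 216 h. At 216 h Dcn (mean 46.3 RPKM, highest cell 354) and Twist1 (mean 27.9) carried most of this sum. Col1a1, Col1a2, Col3a1, Thy1 and Acta2 had means of 0.217 RPKM or less there. Stmn2 went in the cells from a median of 38.8 RPKM at 0 h to 1.89 at 60 h, and stood at 24.0 at 106 h before its low of 1.08 at 216 h.

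The E14 cells allowed a replicated comparison, at day 4 against day 0 and of Fyn-KO against WT. Fyn itself was lower in KO. It read 3.21, 2.74 and 4.00 FPKM in WT and 0.598, 0.598 and 1.10 in KO at day 0, and 9.44, 4.54 and 6.76 in WT and 1.19, 1.13 and 1.58 in KO at day 4. The groups did not overlap at either day, with a log2 difference of -1.74 ± 0.24 (SE) at day 4 (adjusted p = 0.0193) and -1.29 ± 0.24 at day 0 (adjusted p = 0.0601) in limma. The fits below are limma on log2(FPKM + 1) over 12257 genes with at least 1 FPKM in at least 3 of 12 libraries, with Benjamini-Hochberg adjustment. Of the 10 members 9 passed this filter. Dcx did not: it was listed at 0 in all 6 libraries of day 0, and at day 4 its highest value was 0.522 FPKM. In 3 libraries of day 4, WT replicates 1 and 2 and KO replicate 2, the small nucleolar RNA gene Snord22 alone held 158601 to 255503 FPKM and in the other 9 it was at 0, and without these 3 libraries 1 member, Tuba1a, was higher in WT (adjusted p = 0.0254, limma) while Map2 (0.0544) and Ina (0.182) missed the threshold. That fit holds 1 WT library of day 4, which limma takes to vary like the other groups. Nothing in the labels says that the 3 replicates were separate cultures, so p-values measure the spread between these libraries.

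In WT cells 3 of the 9 members tested were higher at day 4 (Tuba1a, Map2 and Ina) and 3 were lower (Tubb2b, Mapt and Nefl), where 15.5% of all genes tested were higher and 10.3% lower. In KO cells the same 3 were higher and 4 were lower (Tubb2b, Mapt, Stmn2 and Nefl), where 11.8% were higher and 7.56% lower. In KO the count of higher members was 0 without KO replicate 1 or 2 of day 0 or without KO replicate 3 of day 4, and 1 without KO replicate 2 of day 4.

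**Figure D5:**
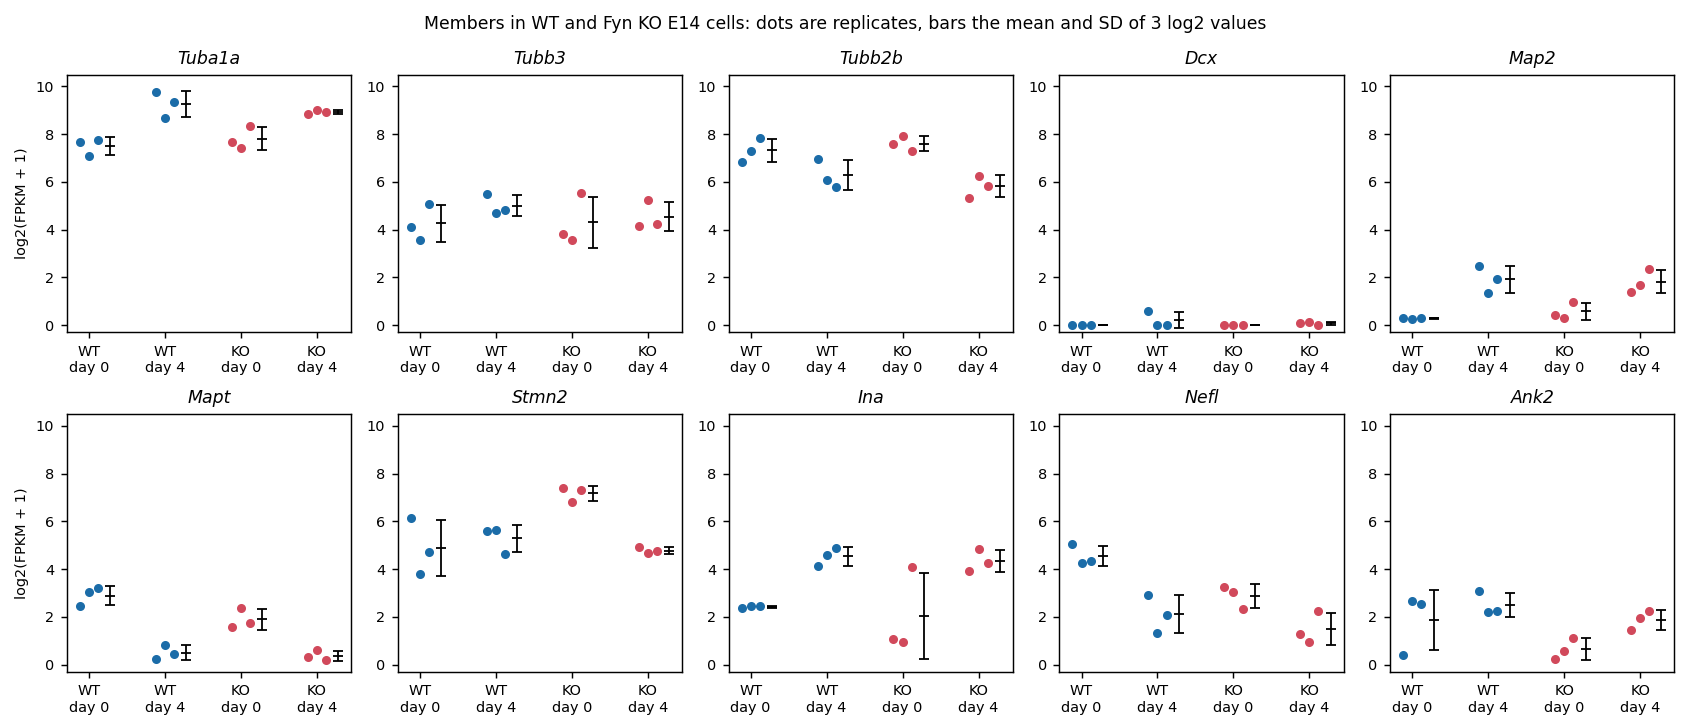
Levels of the 10 members in E14 cells, as log2(FPKM + 1), in 3 libraries (dots) of WT (blue) and Fyn-KO (red) cells at days 0 and 4, with the mean and SD of the 3 log2 values beside them. Tuba1a, Map2 and Ina are higher and Tubb2b, Mapt and Nefl lower at day 4 in both genotypes, and Stmn2 of KO is high at day 0.

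Tuba1a read 205, 134 and 213 FPKM in WT at day 0 and 868, 406 and 647 at day 4. In KO it read 205, 171 and 324 at day 0 and 458, 509 and 483 at day 4. The days did not overlap in either genotype, and the log2 differences were 1.75 ± 0.29 (SE, adjusted p = 0.0019, limma) in WT and 1.10 ± 0.29 (adjusted p = 0.0218, limma) in KO. Tubb3 overlapped between the days, with means of 20.2 ± 11.54 and 32.3 ± 10.8 FPKM (SD, n = 3) in WT, and was not called in either genotype (limma adjusted p = 0.321 and 0.794). Tubb2b went down, from 114, 155 and 225 FPKM to 125, 67.7 and 53.9 in WT and from 192, 243 and 158 to 39.7, 75.5 and 56.4 in KO. In WT 1 library of day 4 reached into the range of day 0, and the call was marginal (log2 difference -1.03 ± 0.34, limma adjusted p = 0.0418, and 0.0546 with the replicate number as a block). In KO the days were apart (log2 difference -1.80 ± 0.34, limma adjusted p = 0.00474).

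Map2 was low in ES cells, at 0.234, 0.199 and 0.246 FPKM in WT, and was at 4.58, 1.56 and 2.84 at day 4. In KO it went from 0.348, 0.238 and 0.982 FPKM to 1.64, 2.25 and 4.13. The days were apart in both genotypes, with log2 differences of 1.63 ± 0.32 and 1.25 ± 0.32 (SE, limma adjusted p = 0.00464 and 0.0205). Mapt went the other way, from 4.42, 7.14 and 8.18 FPKM to 0.158, 0.778 and 0.364 in WT and from 1.95, 4.20 and 2.34 to 0.251, 0.513 and 0.137 in KO. Its log2 differences were -2.39 ± 0.28 and -1.53 ± 0.28 (limma adjusted p = 0.00029 and 0.00439). Map2 was thus higher and Mapt lower at day 4 in both genotypes. In the adherent R1 series, at 92.5 h against 0 h, Map2 was likewise higher (3.96 against 1.50 FPKM) and Mapt lower (0.577 against 2.65), in single samples without a test.

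Ina went from 4.13, 4.44 and 4.46 FPKM to 16.3, 22.8 and 28.7 in WT, with a log2 difference of 2.11 ± 0.65 (SE, limma adjusted p = 0.0334). The call was lost without any 1 of the 6 WT libraries, with adjusted p from 0.0529 to 0.0958. KO read 1.10, 0.912 and 16.1 FPKM at day 0 and 14.1, 27.8 and 18.0 at day 4 (log2 difference 2.30 ± 0.65, limma adjusted p = 0.0287), so that its days overlapped. Nefl fell by 2.45 ± 0.43 on the log2 scale in WT and by 1.39 ± 0.43 in KO (limma adjusted p = 0.00262 and 0.0438), from 32.0, 18.1 and 19.4 FPKM to 6.45, 1.47 and 3.26 in WT. The KO call depended on single libraries, with a limma adjusted p from 0.0239 to 0.144 when 1 was left out. In the adherent R1 samples Nefl stood at 24.9 FPKM at 92.5 h, from 6.51 at 0 h, a difference in the opposite direction, in a table normalized apart and without a test. Ank2 read 0.314, 5.28 and 4.76 FPKM in WT at day 0 and 7.50, 3.56 and 3.75 at day 4, and was not called in WT or KO (limma adjusted p = 0.39 and 0.122).

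The other genes of the lists were compared between the days in E14 cells too. Of the 5 other alpha-tubulins tested none changed in WT or KO (median log2 difference -0.27 and -0.08, against 0.08 and 0.05 over all genes tested), and of the 5 other beta-tubulins 2 were higher (Tubb4a and Tubb6) and 1 lower (Tubb2a) in each genotype. Of the 9 other intermediate filament genes 1 was higher and 1 lower in WT, and 2 were higher and 2 lower in KO. Of 6 neuron markers tested 5 were higher in WT and 3 in KO, while naive pluripotency markers were lower in 8 of 8 and 7 of 8. The summed FPKM of the 10 neuron markers was 1.48 to 2.68 in WT at day 0 and 17.4 to 45.0 at day 4, where the last R1 samples held 273 to 593 in tables normalized apart. Fibroblast markers summed over 10 genes were at 0.285 to 7.81 FPKM at day 0 and 4.23 to 15.7 at day 4, and their part in the E14 differences was not tested.

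Between Fyn-KO and WT none of the 9 members was called at day 4, where 0.0734% of all genes tested were (9 of 12257, with 1483 at an unadjusted p below 0.05). All 9 log2 differences were below 0, from -0.64 ± 0.53 (SE) for Ank2 to -0.10 ± 0.32 for Map2, and each was smaller than 2 SE. The 9 values come from the same libraries and are not independent of each other. The share of all genes below 0 is not given here, so the shared sign is not read as a result. The sign turned for Map2, Mapt and Ina when single libraries were left out, and for Stmn2 without the 3 libraries of high Snord22, which leaves 1 WT library at day 4. No gene of the lists passed at day 4 either, although markers of other cell types had larger negative differences, among them the neural progenitor genes Pax6 (-2.46 ± 0.55, SE, limma adjusted p = 0.117) and Sox1 (-2.40 ± 0.62, adjusted p = 0.156), while Nes (0.18), Sox2 (-0.08), Notch1 (-0.02) and Msi1 (-0.32) of the same list were closer to 0. Of the endoderm genes, Foxa2 was at -0.89 ± 0.24 (adjusted p = 0.165, limma), Gata4 at -1.93 ± 0.63 (adjusted p = 0.244) and Gata6 at -1.59 ± 0.67 (adjusted p = 0.374). The 8 neural progenitor markers summed to 177 to 309.8 FPKM in WT and 115 to 207 in KO at day 4, and their part in the members' values was not tested. At day 0 none of the members was called, where 0.171% of genes were, with 1785 at an unadjusted p below 0.05.

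Of the 9 members, Stmn2 had the largest log2 difference between the genotypes at day 0. It read 69.3, 12.9 and 25.3 FPKM in WT and 168, 110.2 and 157 in KO at day 0, so that the groups did not overlap and the means were 4.04-fold apart (log2 difference 2.28 ± 0.47, limma adjusted p = 0.0754). At day 4 it read 47.2, 49.0 and 23.4 in WT and 29.2, 24.2 and 25.9 in KO. It fell in KO (log2 difference -2.39 ± 0.47, limma adjusted p = 0.00574) and was at 0.40 ± 0.47 in WT (adjusted p = 0.572). The difference between these changes was -2.79 ± 0.66, with an unadjusted p of 0.00129 and an adjusted p of 0.997 in limma. No gene passed this interaction test (0% of 12257), and 537 had an unadjusted p below 0.05. Without WT replicate 1 of day 0, whose Stmn2 is the highest of WT, the adjusted p of Stmn2 was 0.00403 for KO against WT at day 0 and 0.0358 for the difference of the changes. Over the libraries left out in turn these adjusted p ran up to 0.251 and 0.9998 in limma, and the day 0 difference from 1.74 to 2.91. Leaving out the same library also brought the day 0 difference of Ank2 past the threshold (-1.95, limma adjusted p = 0.029), where its range without 1 library was -1.95 to -0.82 with adjusted p up to 0.726, and the Ank2 of that library was 0.314 FPKM. KO cells are 1 clone, so the clone and the deletion cannot be told apart.

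Nefl and Mapt read lower in KO than in WT at day 0, and their libraries did not overlap, as for Stmn2. With 3 against 3 libraries, order alone gives such a separation in either direction at a chance of 0.1. How many of all genes separated in this way was not counted. Nefl read 8.54, 7.15 and 3.99 FPKM in KO against 32.0, 18.1 and 19.4 in WT (log2 difference -1.68 ± 0.43, limma adjusted p = 0.129), and for Mapt the difference was -0.99 ± 0.28 (limma adjusted p = 0.147). Neither passed the test. At day 4 both genes overlapped between the genotypes, with Mapt below 1 FPKM in all 6 libraries.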

How the data were processed

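RNA-seq values were taken as deposited. The authors mapped reads of R1 samples to mm9 and of E14 samples to mm10, and the submitters' processing notes name TopHat2 2.0.8b and Cufflinks 2.1.1. The methods of the study name earlier versions of both tools, so the versions used are uncertain. The SFEB population table holds FPKM that the authors adjusted for batch with ComBat, and its 1256 values below 0 (0.4216%) were set to 0. The adherent and E14 tables hold FPKM as deposited, and the single-cell table holds log10(RPKM + 1) that the authors quantile normalized, so a level on this log10 scale is not a read count. No file gives counts, so the depth of each library is unknown beyond a minimum number of reads that the study states for the cells and the parallel populations, and no counting interval is given. The methods state a filter on cells that 2008 of 11449 genes of the deposited table do not meet, Mapt among them.

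Samples were grouped by the labels. Time tests used log2(FPKM + 1) of genes with at least 0.5 FPKM in at least 8 samples, with 100000 permutations (exact for 8 time points), whose smallest p is 1e-05. E14 fits used limma 3.58.1 in R 4.3.3 with 4 groups, no replicate block and a trended variance. Same-numbered E14 libraries deviated together between the days in WT (correlations 0.199, 0.220 and 0.224) and between genotypes at day 4 (0.136, 0.258 and 0.240), but not in KO between the days (0.024, 0.090 and 0.0011) or between genotypes at day 0 (0.063, 0.339 and -0.115), and no label says what a number marks. Other tools were Python 3.11.15, scipy 1.17.1, pandas 2.3.3 and numpy 2.4.6, and each test was tried on simulated data. Alternatives were another pseudocount (0.1), no filter, quantile normalization, the replicate block, other variance settings and leaving out libraries or times. The alternatives on Snord22 were chosen after seeing the data.

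The members and lists were chosen with earlier results of these data known. The rule named the 10 members, Fyn, the 5 genes outside the list most like them by the smaller Pearson r in both R1 population tables, any list gene that passed between KO and WT at day 4, and as examples the 2 highest genes of a list. Other list genes named beside small counts, and the neuron markers named in the cells, were chosen after their values were seen.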

Additional observations from a re-analysis of the deposited data

Results flagged for a closer look

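In 23 of 70 groups of 8 cells, 1 cell stood apart from the other 7 by Dixon's ratio of gap to range, where chance gives about 1 in 20. Values are log10(RPKM + 1), and many groups held a gene at or near 0 in most cells, so a single cell with any reads stands apart.

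For Map2 the highest cell stood apart at 9 h (1.10), 38 h (0.0294), 84 h (0.966), 144 h (1.04) and 216 h (1.77). For Mapt it stood apart at 0 h (0.517), 9 h (0.0101), 38 h (0.455), 60 h (0.158), 144 h (0.789) and 216 h (0.102). For Ank2 it stood apart at 0 h (0.389), 9 h (0.0332), 38 h (0.141), 60 h (0.336), 84 h (0.107) and 216 h (1.11). The cell of 216 h was the same for these 3 genes, cell 4, and the cell of 144 h was the same for Map2 and Mapt, cell 8.

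Among the more abundant members, the highest cell stood apart for Tubb3 at 106 h (3.28), Tubb2b at 60 h (0.672), Stmn2 at 144 h (2.33), Ina at 9 h (2.41) and Nefl at 38 h (2.21). For Tuba1a the lowest cell of 84 h stood apart (2.35), with the next cell at 2.99.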

How the results depend on the processing

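Without the 3 libraries of high Snord22, which leaves 1 WT library at day 4, taken to vary like the other groups, members higher at day 4 in WT went from 3 to 1. Leaving out 1 library at a time gave 2 in every case for members higher and 2 to 3 for members lower in WT, 0 to 3 higher and 3 to 4 lower in KO, 0 between KO and WT at day 4, 0 to 2 at day 0 and 0 to 1 for the difference of the changes, the last highs without WT replicate 1 of day 0. In the parallel SFEB series alone 3 members rose in place of 6. With the replicate number as a block, members lower in WT went from 3 to 2, since Tubb2b had an adjusted p of 0.0546 in limma, and no other call on a member changed. Ank2 passed in KO in a fit of the 2 KO groups alone (adjusted p = 0.0441, limma), where Ina (0.0948) and Nefl (0.0557) did not.

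The sign turned in values that were not called. The day 4 minus day 0 difference in WT became -0.15 (range -0.15 to 1.02) for Stmn2 and -0.081 (range -0.081 to 1.05) for Ank2 without 1 library, and -0.27 for Stmn2 without the 3 libraries. In KO that of Tubb3 became -0.01, -0.15 and -0.12 without 1 library (range -0.15 to 0.84), and -0.12 without the 3 libraries. The KO minus WT difference at day 4 became 0.11 and 0.17 for Map2 (range -0.39 to 0.17), 0.039 for Mapt (-0.27 to 0.039) and 0.020 for Ina (-0.44 to 0.020) without 1 library, and 0.22 for Stmn2 without the 3. At day 0 it became -0.57, -0.02 and -0.30 for Tubb3 (-0.57 to 0.46) and 0.10 and 0.17 for Ina (-1.41 to 0.17). The rank correlation with time became -0.124 and -0.226 for Mapt (without the 2 farthest samples and in the first series) and 0.119 for Stmn2 in the parallel SFEB series, and -0.231 for Stmn2 in the adherent samples without the 2 farthest. The causes were not tested.

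Of all E14 differences of single members under the alternatives, 472 kept direction and side of the threshold, 40 lost and 4 gained a call, and 17 turned sign. Of the values of rho 95 kept both, 7 lost and 1 gained a call and 4 turned. The hour of the rise moved in 20 of 56 cases, most often with a 4-fold in place of a 2-fold limit, under which 4 rises were lost (Mapt and Ina in the first, Stmn2 in the parallel and Tubb3 in the adherent series). The fit of the difference of the changes on the compared groups is the main one and was not run apart. The tables give no counts, so what depth limits could not be computed.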
